A study of Mus musculus with 130 samples.

Results

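The 20 mouse strains with the highest liver level of Sqle were set against the 20 strains with the lowest, out of a panel of 114 strains. Sqle encodes squalene epoxidase, the enzyme that puts oxygen on squalene and so commits it to sterols. The members were chosen by the deposited TPM of Sqle, a transcript level scaled for gene length and library size. All strains but 1 were ranked, and the 40 strains are 40 of the 130 libraries in the series. Because Sqle chose the groups, its own values are given as a description and it was not itself tested, and its level is the predictor in the slopes given further on. A gene that goes with Sqle from mouse to mouse must differ between groups drawn in this way, so the count of changed genes is no independent evidence of a shared pathway. The 73 strains between the groups were placed there by the same ranking, so their Sqle values took part in it, though they are in neither group. The 15 mice of a separate diet study took no part in the choice of the groups.

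The study asked how inbred strains differ in their response to dietary iron overload. All panel mice were male, ate chow for 4 weeks and then a diet with 2% carbonyl iron (20000 ppm) for 6 weeks, so the high and the low Sqle strains had the same diet and neither has a panel control on another diet. RNA was taken from the large lobe of the liver in 1 mouse per strain, so a difference between strains and a difference between single mice cannot be told apart. The diet study held male C57BL/6J mice, 3 each on chow, 50 ppm iron, 500 ppm iron, 2% carbonyl iron, and 2% carbonyl iron with cellulose as the fibre. The ages of the mice and the hour of tissue collection are not given in the sources used here. The ranking leaves out 2 panel libraries. These are the second of 2 mice of 129X1/SvJ and the library labelled BXD65/RwwJ, whose summed TPM of 4 Y-linked genes was 1.08 against at least 32.7 in each other panel library.

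Liver cells make cholesterol from acetyl-CoA. HMGCS1 acts at the start of the path to mevalonate, a set of kinases and a decarboxylase turn it into isoprenoids, FDFT1 joins these into squalene, and SQLE and LSS close the ring to lanosterol, which further enzymes trim to cholesterol. The transcription factor SREBP2, made from Srebf2, switches on these genes when membrane sterol is low. SCAP carries SREBP2 out of the endoplasmic reticulum, and INSIG proteins hold it there when sterol is plentiful. Its relative SREBP1c, made from Srebf1, drives fatty acid synthesis after feeding, and hepatic sterol synthesis in mice is known to follow feeding and the time of day.

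The 20 high strains had 60.8 to 111.6 TPM of Sqle, with a median of 71.2. The 20 low strains had 3.52 to 13.2 TPM, with a median of 9.19. These levels rest on 1665 to 3709 and on 105 to 401 Sqle counts. BXD33/TyJ had the most Sqle and FVB/NJ the least. At the edges of the groups the steps were small: BXD44/RwwJ with 60.8 TPM was ranked last in the high group and BXD56/RwwJ with 60.7 TPM just missed it. At the other end BUB/BnJ with 13.2 TPM was in the low group and BXD22/TyJ with 14.9 TPM was not.

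**Figure D1:**
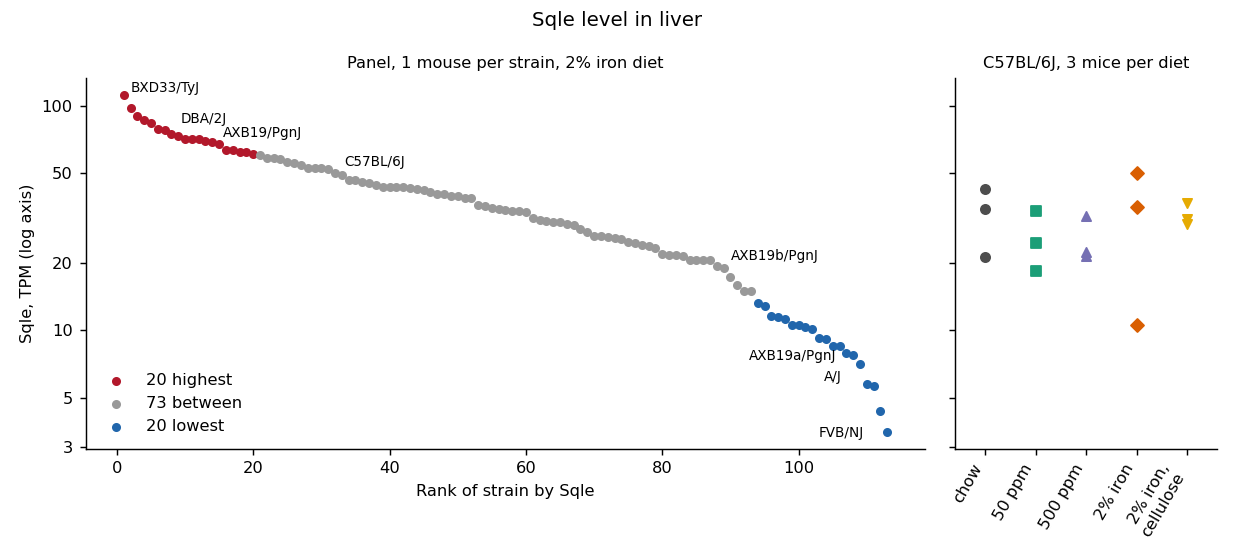
Sqle level (TPM, log axis) against rank for the ranked panel strains, 1 mouse each, coloured by group (left), and in the 15 C57BL/6J mice of the diet study by diet, 3 mice each (right). Levels ran from 111.6 to 3.52 TPM over the panel, and the diet mice of 1 strain spanned 10.6 to 50.1 TPM.

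The 2 groups differed in ancestry. The BXD lines are recombinant inbred strains bred from C57BL/6J and DBA/2J, and the AXB/BXA, BXH and CXB lines come from C57BL/6J crossed with A/J, C3H/HeJ and BALB/cByJ. The high group held 14 BXD, 1 AXB/BXA, 1 CXB and 4 other inbred strains, among them DBA/2J. The low group held 4 BXD, 4 AXB/BXA, 2 BXH, 1 CXB and 9 other inbred strains, among them A/J, FVB/NJ and NOD/ShiLtJ. One of the high BXD lines carries, by its label, the rd16 allele of Cep290. The median Sqle level was 45.2 TPM over 55 BXD strains and 21.7 TPM over 20 AXB/BXA strains. Of the parents, DBA/2J had 71.2, C57BL/6J 50.1, C3H/HeJ 21.4, BALB/cByJ 10.5 and A/J 7.03 TPM.

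Closely related mice did not always rank together. AXB19/PgnJ, with 69.1 TPM of Sqle, was in the high group, while the lines that share its name stem, AXB19a/PgnJ and AXB19b/PgnJ had 7.76 and 18.99 TPM, the first of them in the low group. BXD48/RwwJ had 45.2 TPM and BXD48a/RwwJ 14.9 TPM. The 2 mice of 129X1/SvJ had 35.6 and 34.4 TPM. C57BL/6J had 50.1 TPM in the panel, and the 3 C57BL/6J mice on 2% iron in the diet study, whose values are in a separate table, had 10.6, 35.5 and 50.1 TPM. On the log2 scale the SD of Sqle was 1.07 over the ranked strains and 0.632 within the diet groups of C57BL/6J (10 residual degrees of freedom). The second value pools all diets of that study, whereas the ranked strains were all on 2% iron. The 2% iron group, at 10.6 to 50.1 TPM, had the widest range of the diet groups. Without replicate 1 of the 2% iron group, the mouse with the least Sqle, the SD within the diet groups was 0.384 (9 residual degrees of freedom), a value added after the data were seen. The rank of a strain rests on 1 mouse.

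Library totals were 10.28 to 14.55 M counts in the high and 9.41 to 15.4 M in the low strains (M stands for 1000000; permutation test of the means, p = 0.463), and 10.4 to 20.4 M in the diet study. Counts per gene were compared with the quasi-likelihood test of edgeR, with Benjamini-Hochberg adjustment over all genes tested. Calls required an adjusted p under 0.05, and the adjusted p-values below are those of this test. Log2 changes are high minus low, from counts scaled with TMM factors, and ± gives the standard error. TPM levels are on another scale, on which the median of all genes was 0.10 higher (log2) in the high strains. The test covered 13145 genes and called 1210 (9.21%). In the high strains 631 were above (4.80%) and 579 below (4.40%) the low strains. On log2(TPM + 1) with limma, 2120 were higher and 109 lower, so the balance of rises and falls depends on the scaling.

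The labelled tissue was checked with 9 hepatocyte genes, whose summed level was 51760 to 84180 TPM in the high and 39330 to 85440 TPM in the low strains. Of these genes Serpina1a was called higher and Tat lower, and 7 were not called. Of the marker genes of Kupffer cells (11), stellate cells (9), sinusoidal endothelium (7), cholangiocytes (3 of 5 tested), lymphocytes (2 of 8) neutrophils (3 of 5), erythroid cells (6 of 7) and exocrine pancreas (1 of 12), none was called, and each gene was above 0 in at least 1 of the 40 strains. The Kupffer sum was 286 to 941 TPM in the high and 263 to 789 TPM in the low strains, and the erythroid sum 6.33 to 3680 and 14.4 to 3688 TPM. In whole liver, fewer cells of a type and less RNA per cell cannot be told apart.

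Of 21 cholesterol synthesis genes beside Sqle, 19 were higher in the high strains and none was lower, with a median log2 change of 1.47, while the median over all genes tested was -0.01. The 21 genes all passed the filter on low counts. Ggps1, whose product makes the isoprenoid of protein prenylation on a side branch, and Lbr, a lamin receptor that also acts as a sterol reductase, were not called. In 9 genes of 13145 (0.0685%) the TPM of the 2 groups did not overlap at all. Of these, 8 are on the list, among them Hmgcs1, Mvd, Idi1, Fdps, Cyp51, Msmo1 and Nsdhl, and the other is Gm13502, annotated as a processed pseudogene on chromosome 2. Its level was 52.5 ± 20.97 TPM (SD, n = 20) in the high and 3.73 ± 3.89 TPM (SD, n = 20) in the low strains. A pseudogene can share reads with its parent gene, so its value is uncertain.

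The promoter letters of 3 list genes are shown to set 2 genes that moved together beside 1 that was not called. Each is the stretch of 200 bases just before the start of the RefSeq transcript (GRCm38.p6), read 5′ to 3′ on the gene's strand, and none of them overlaps an annotated exon. Capitals mark CCAAT or its reverse complement ATTGG, the letters bound by NF-Y, and TCACCCCAC, a match to TCACNCCAC, the core of a known type of sterol response element.
Hmgcs1, chr13:119690151-119690350, + strand: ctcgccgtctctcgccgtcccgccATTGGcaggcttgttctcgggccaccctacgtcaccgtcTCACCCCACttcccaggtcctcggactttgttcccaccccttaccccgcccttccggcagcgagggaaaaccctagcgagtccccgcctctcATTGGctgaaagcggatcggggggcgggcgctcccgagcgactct
Mvd, chr8:122443423-122443622, - strand: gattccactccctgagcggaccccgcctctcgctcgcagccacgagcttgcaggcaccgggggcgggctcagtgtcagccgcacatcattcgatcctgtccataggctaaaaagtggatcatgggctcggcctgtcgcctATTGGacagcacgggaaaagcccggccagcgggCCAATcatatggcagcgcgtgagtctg
Lbr, chr1:181842402-181842601, - strand: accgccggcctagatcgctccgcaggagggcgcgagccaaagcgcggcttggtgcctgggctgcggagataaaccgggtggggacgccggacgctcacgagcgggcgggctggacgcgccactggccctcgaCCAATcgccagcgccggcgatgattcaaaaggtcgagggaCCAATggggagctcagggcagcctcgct

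The promoters of 15 called list genes and of both uncalled ones were in the RefSeq table, those of Fdps, Fdft1 and Sqle, among others, were not. Within 250 bases before the start, on either strand, CCAAT was found in 14 of the 15 called genes (all but Acat2) and in both Ggps1 and Lbr. It was found in 33.8% of all 32851 promoters of that length. TCACNCCAC was found in Hmgcs1 alone among these genes and in 1.05% of all promoters. GGGCGG, the letters of an Sp1 site, was found in 14 of the 15 (all but Pmvk), in Lbr and in 32.7% of all promoters. In Hmgcs1 TCACCCCAC starts 137 bases before the transcript start, with ATTGG at 176 and 45. In Mvd the 2 NF-Y matches start at 60 and 27 bases, and in Lbr at 68 and 28 bases. Where a gene has several listed starts, as Pmvk and Dhcr7 do, a match at any of them was counted. The shares of all promoters count each listed start on its own, so they are not in the same unit as the gene counts. Matching letters describe the sequence only, and they separate the called from the uncalled genes of the list no further than these counts.

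At the start of the pathway the groups were apart in 1 of 2 named genes. Hmgcs1, which condenses acetoacetyl-CoA with acetyl-CoA, was at 86.0 to 379 TPM in the high strains (median 204) and 11.5 to 64.0 TPM in the low strains (median 26.99). No low strain reached the lowest high strain, and the log2 change was 2.64 ± 0.19 (adjusted p = 1.63e-13). Acat2, the thiolase that supplies acetoacetyl-CoA, rose by 1.19 ± 0.17 (log2), with 12 of the 20 low strains above the lowest high strain.

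Mvd, the mevalonate diphosphate decarboxylase, had the largest change of the list, 3.00 ± 0.19 (log2, adjusted p = 3.32e-15). It was at 7.31 to 38.2 TPM in the high strains (median 16.2) and 0.973 to 3.02 TPM in the low strains (median 1.88). Idi1, which isomerises isopentenyl diphosphate, was at 54.5 to 219 TPM (median 126) in the high and 3.21 to 34.4 TPM (median 16.7) in the low strains, a log2 change of 2.87 ± 0.25. Fdps, which makes farnesyl diphosphate, was at 176 to 520.7 TPM (median 291) against 9.44 to 132 TPM (median 50.96), a log2 change of 2.31 ± 0.26. The groups were apart in all 3 genes. The mevalonate kinase Mvk (1.79 ± 0.15) and the phosphomevalonate kinase Pmvk (1.43 ± 0.20) rose as well, with 1 and 5 low strains above the lowest high strain. Ggps1, which takes farnesyl diphosphate away from sterols, was at 2.33 to 7.24 TPM in the high and 2.17 to 7.71 TPM in the low strains (log2 change -0.12 ± 0.11, adjusted p = 0.504).

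**Figure D2:**
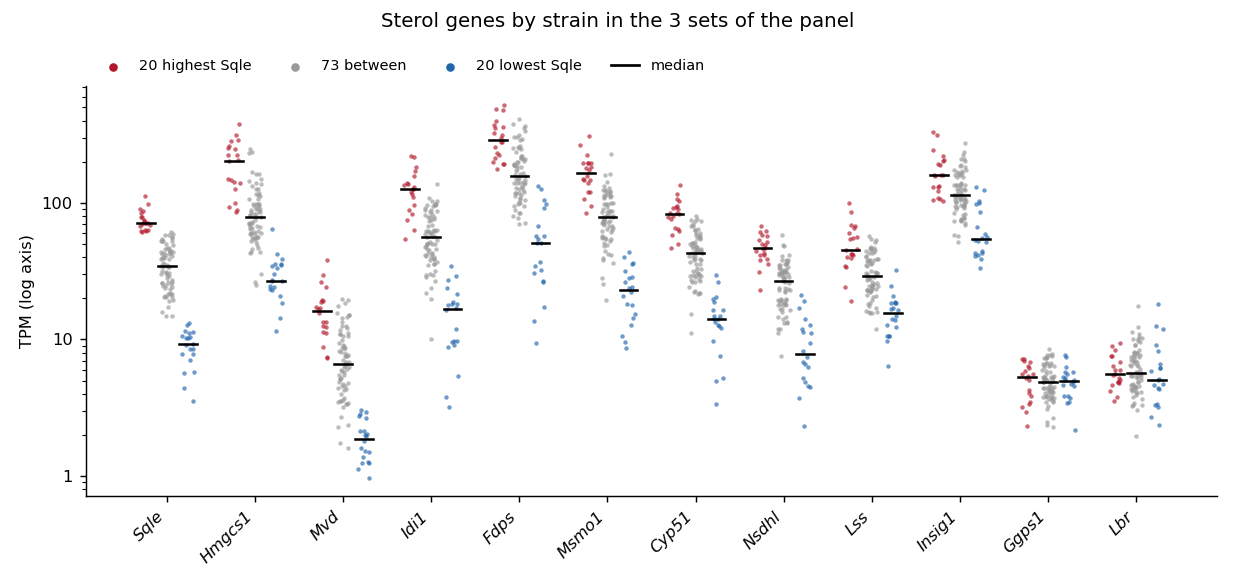
TPM (log axis) of Sqle and 11 genes of sterol metabolism in each ranked strain, split into the 20 highest Sqle strains, the 73 between and the 20 lowest, with the median of each set as a bar. In Hmgcs1, Mvd, Idi1, Fdps, Msmo1, Cyp51 and Nsdhl the red and blue points do not overlap, in Insig1 2 and in Lss 3 low strains lie above the lowest high strain, and in Ggps1 and Lbr most strains overlap.

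Next to Sqle in the pathway, Fdft1, the squalene synthase, rose by 1.44 ± 0.14 and Lss, the lanosterol synthase, by 1.64 ± 0.13 (log2). Lss was at 19.3 to 101 TPM (median 45.4) in the high and 6.42 to 31.99 TPM (median 15.6) in the low strains, with 3 low strains above the lowest high strain. Among the enzymes after lanosterol, the C4 oxidase Msmo1 rose by 2.73 ± 0.20, the C14 demethylase Cyp51 by 2.39 ± 0.19 and the C4 decarboxylating dehydrogenase Nsdhl by 2.16 ± 0.21. Msmo1 was at 83.8 to 310 TPM (median 166) in the high and 8.72 to 43.7 TPM (median 23.1) in the low strains. The other enzymes after lanosterol named here had smaller log2 changes than these 3. Dhcr7 rose by 1.47 ± 0.18, Sc5d by 1.43 ± 0.28, Hsd17b7 by 1.20 ± 0.12, Tm7sf2 by 0.92 ± 0.20 and Ebp by 0.43 ± 0.12. Lbr, which shares its reductase step with Tm7sf2, was at 3.51 to 9.36 TPM in the high and 2.37 to 18.3 TPM in the low strains (0.04 ± 0.12, adjusted p = 0.853).

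Summed over the 21 enzymes without Sqle, the level was 1197 to 3489 TPM in the high strains (median 2297), 644 to 2555 TPM in the strains between (median 1412) and 351 to 1157 TPM in the low strains (median 757). No low strain reached the lowest high strain. Ranked by this sum, 14 of the 20 high Sqle strains were among the top 20 and 15 of the 20 low Sqle strains among the bottom 20. The remaining places at the top were held by 6 strains and those at the bottom by 5 strains from the middle of the Sqle ranking.

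Of 20 genes of sterol sensing and uptake, 19 were tested, and 8 rose and 2 fell, with a median log2 change of 0.14. Npc1l1, the sterol importer of the gut, was not tested, since it lay at or below 0.203 TPM in all 40 strains. Srebf2 was at 22.4 to 39.6 TPM (median 31.5) in the high and 11.5 to 22.9 TPM (median 16.97) in the low strains. A single low strain exceeded the lowest high strain, and the log2 change of 0.87 ± 0.07 had an adjusted p of 2.77e-12. Scap rose by 0.42 ± 0.11. Srebf1 overlapped widely, with 46.8 to 175 TPM in the high and 26.3 to 160 TPM in the low strains (0.46 ± 0.19, adjusted p = 0.112).

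Insig1 was at 103.55 to 330 TPM (median 159) in the high and 33.5 to 130 TPM (median 54.5) in the low strains, a log2 change of 1.28 ± 0.17. Stard4, a carrier of cholesterol inside cells, rose by 1.37 ± 0.15, Aacs, which activates acetoacetate, by 0.89 ± 0.22 and Tmem97, the sigma-2 receptor, by 0.65 ± 0.09. Mylip, a ubiquitin ligase under sterol control, was lower by the test (-0.54 ± 0.14, adjusted p = 0.0102), with medians of 3.02 and 3.47 TPM. For Mbtps1, a protease that cuts SREBPs, the fit gave -0.16 ± 0.04, while its TPM medians were 20.4 in the high and 20.0 in the low strains, so its direction depends on the scaling. With strain family as a covariate Mylip (adjusted p = 0.0672), Mbtps1 (0.195) and Aacs (0.0584) were not called. Insig2, whose liver transcript is known to rise in fasting, had medians of 166 and 237 TPM (-0.77 ± 0.28, adjusted p = 0.0688).

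Of genes of sterol export and use, none of 8 LXR genes and none of 16 genes of lipoproteins and cholesterol esters was called. Of 15 bile acid genes, 2 were higher. Over all genes 9.21% were called, 4.80% as higher, so at that share short lists like these would hold few calls. Cyp7a1, the rate-limiting enzyme of bile acid synthesis, was at 7.73 to 168 TPM (median 62.2) in the high and 2.36 to 88.5 TPM (median 18.2) in the low strains, a log2 change of 1.36 ± 0.37 (adjusted p = 0.0165) that had an adjusted p of 0.0749 with the strain family as a covariate. Nr1h4, the bile acid receptor, rose by 0.34 ± 0.11 (adjusted p = 0.0423, and 0.213 with the family covariate).

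Genes of fatty acid synthesis rose with the sterol genes. Of 18, 10 were higher and none lower, with a median log2 change of 0.76 and all 18 above 0. Fasn, the fatty acid synthase, was at 54.3 to 631.7 TPM (median 169) in the high and 22.4 to 111 TPM (median 51.5) in the low strains. Its log2 change was 1.79 ± 0.26 (adjusted p = 1.20e-05), and 9 low strains exceeded the lowest high strain. Acss2, which makes acetyl-CoA from acetate, rose by 1.61 ± 0.30, Acly, which makes it from citrate, by 1.14 ± 0.19 and Acaca, the acetyl-CoA carboxylase, by 0.75 ± 0.16.

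Genes of the fasted liver went the other way. Of 19 genes of fasting and PPARα, 10 were lower and none higher, with a median of -0.71. Pdk4, the kinase that shuts glucose carbon out of the mitochondrial acetyl-CoA pool, was at 1.24 to 7.05 TPM (median 2.70) in the high and 1.84 to 113.4 TPM (median 9.90) in the low strains. Its log2 change was -2.92 ± 0.43 (adjusted p = 1.46e-05), and 8 of the 20 low strains lay within the range of the high strains. G6pc, the glucose-6-phosphatase of glucose release, was at 13.6 to 102 TPM (median 53.1) against 26.7 to 332 TPM (median 147), a change of -1.47 ± 0.26. Acot1, a PPARα target that splits acyl-CoA, fell by 2.06 on the log2 scale and Cyp4a10, which hydroxylates fatty acids, fell by 1.75. Both have close paralogs that can share reads. Ppara itself (0.08 ± 0.15) was not called.

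Clock genes differed as well. Of 17, 16 were tested, 3 were higher and 4 lower. Arntl, which encodes the clock activator BMAL1, was at 0.195 to 4.64 TPM (median 0.573) in the high and 0.324 to 13.45 TPM (median 2.18) in the low strains, a log2 change of -2.02 ± 0.47 (adjusted p = 0.0056). Dbp, an output gene that peaks when Arntl is low, was at 11.1 to 180 TPM (median 109) against 0.965 to 88.8 TPM (median 22.97), a change of 1.54 ± 0.41 (adjusted p = 0.0138). Cry1, a repressor of the clock, changed by -1.59 ± 0.22, Nfil3 by -1.29 ± 0.28 and Clock by -0.43 ± 0.13, while Nr1d1 and Bhlhe41 rose by 1.14 ± 0.37 and 0.91 ± 0.26. The groups overlapped in each of these genes, and 14 of the 20 low strains were within the Arntl range of the high strains.

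These clock and fasting genes moved together with Sqle, and fits with them as covariates, chosen after the values were seen, gave the following. With log2 CPM of Arntl and Dbp as covariates, 115 genes were called (0.875%, with 0.685% higher), among them 17 of the 21 cholesterol genes, and Mvd changed by 2.65, Hmgcs1 by 2.52 and Srebf2 by 0.88. With Pdk4, G6pc and Igfbp1 as covariates, 235 genes were called (1.79%, with 1.38% higher and 0.403% lower), among them 18 of the 21, and the same 3 genes changed by 2.91, 2.36 and 0.95. None of the other fasting genes and none of the remaining clock genes was called in either of these fits, and 2 of the 18 lipogenic genes were called in each, Fasn and Acss2. With Arntl and Dbp the median log2 change of the 19 fasting genes was still -0.47, with 1 above 0, against -0.71 with no covariate. For the 16 fasting genes tested with Pdk4, G6pc and Igfbp1 as covariates the median was 0.10, with 11 above 0. The median log2 change of the 18 lipogenic genes was 0.64 with Arntl and Dbp, with all 18 above 0, and 0.80 with Pdk4, G6pc and Igfbp1, with 17 above 0, against 0.76 with no covariate. Time of collection, feeding before collection and strain cannot be told apart in these files.

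**Figure D3:**
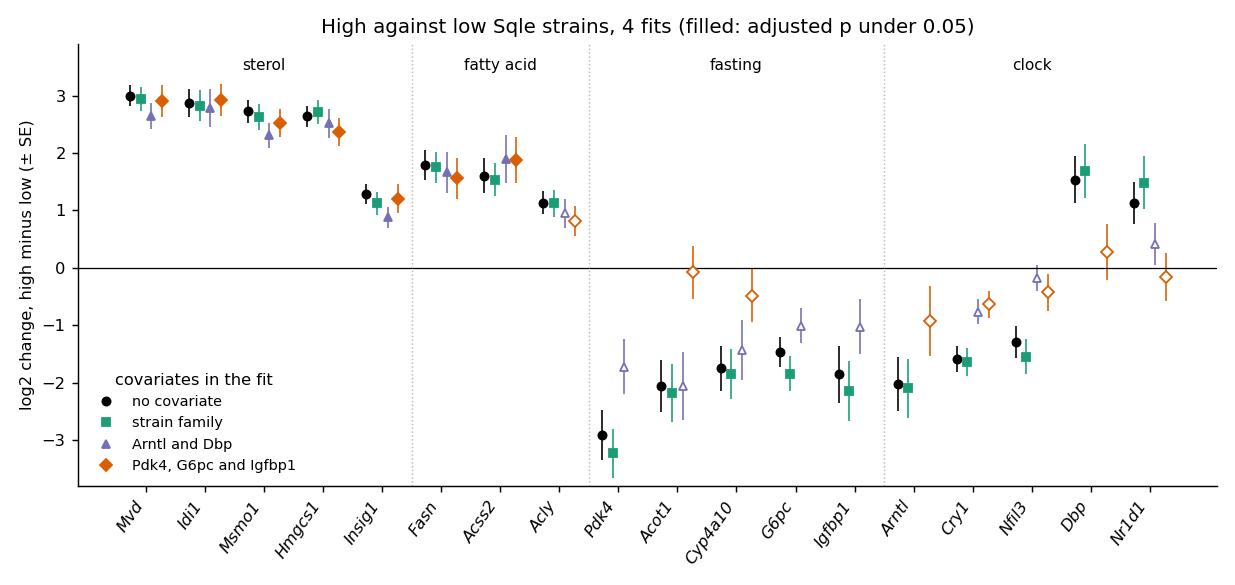
Log2 change, high minus low Sqle, with its standard error for 18 genes in fits with no covariate, with strain family, with log2 CPM of Arntl and Dbp, and with log2 CPM of Pdk4, G6pc and Igfbp1. Filled symbols have an adjusted p under 0.05, and genes used as covariates have no symbol in that fit. Mvd lay at 3.00 with no covariate and 2.65 with Arntl and Dbp, and none of the fasting and clock genes has a filled symbol with the gene covariates.

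Because the families were uneven, the contrast was also fitted with strain family as a covariate and within the BXD strains. With the covariate, 652 genes were called (4.96%, with 2.88% higher and 2.08% lower), among them 18 of the 21 cholesterol genes (all but Ggps1, Lbr and Ebp), 9 of 18 lipogenic, 10 of 19 fasting and 7 of 16 clock genes. Within the BXD strains alone, 14 high against 4 low, 119 genes were called (0.858%, with 0.490% higher and 0.368% lower). These included 13 of the 21 cholesterol genes, 5 fasting genes and Cry1 as the clock gene, and no lipogenic gene, though all 18 lipogenic genes were above 0. In these strains Mvd changed by 2.71, Hmgcs1 by 2.67 and Pdk4 by -3.90.

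Of 25 iron genes, 1 was called, Tfrc, the transferrin receptor, at 1.38 to 31.5 TPM (median 4.79) in the high and 2.96 to 42.9 TPM (median 10.4) in the low strains (-1.10 ± 0.33, adjusted p = 0.0294). Its adjusted p was 0.0909 with the family covariate. Hamp, the iron hormone hepcidin, had medians of 3921 and 4023 TPM (-0.21 ± 0.13, adjusted p = 0.329). Of 14 NRF2 genes tested, 4 were lower: the glutathione transferases Gsta1 (-2.28 ± 0.54) and Gsta2 (-1.45 ± 0.36), the transporter Abcc4 (-1.26 ± 0.35) and the cystine carrier Slc7a11 (-1.10 ± 0.36). With the family covariate Abcc4 alone of these was called. Of 12 stress genes, Xbp1 was higher (0.28 ± 0.07) and Sesn2 lower (-0.55 ± 0.15, adjusted p = 0.0532 with the family covariate), and none of 8 cell cycle genes tested was called. Over all genes 9.21% were called, 4.80% as higher and 4.40% as lower. Beside that share the few calls among the iron and stress genes do not set those lists apart.

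Among 14 acute phase genes, 5 were higher. Saa1, serum amyloid A, was at 15.8 to 1752 TPM (median 100.5) in the high and 7.28 to 241 TPM (median 32.1) in the low strains, a log2 change of 2.50 ± 0.56. Saa2 rose by 3.23 ± 0.65, Orm2 by 2.31 ± 0.58 and Orm1 by 1.03 ± 0.27. The ranges overlapped, with 17 low strains above the lowest high strain for Saa1, and none of the 14 was called with the family covariate, where Saa1 was at 2.40 ± 0.78 (adjusted p = 0.0654). The median log2 change of the 14 was 0.24 without and 0.41 with that covariate, with 13 above 0 in both. With Saa1 and Saa2 as covariates, 18 of the 21 cholesterol genes were called. Of 13 genes under growth hormone control, the male-biased Mup20 (2.90 ± 0.71), Cyp4a12a (3.06 ± 0.80) and Hsd3b5 (2.51 ± 0.77) were higher, and the others were not called. These 3 genes varied widely from strain to strain, as Mup20 did with 5.97 to 3142 TPM in the high and 1.55 to 350 TPM in the low strains, and have close paralogs, as the Saa, Orm and Gsta genes do.

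Outside the lists, the largest rises were those of Mup7 (4.84 ± 1.08), Mup11 (3.38 ± 0.84) and Mup21 (2.85 ± 0.58), urinary proteins whose near-identical copies make single values uncertain. Their medians in the high and low strains were 4.80 and 0.348, 10.8 and 1.04, and 3.67 and 0.896 TPM. The highest high strain had 1299.7 TPM of Mup7, 366 TPM of Mup11 and 98.6 TPM of Mup21. For Mup7 and Mup11 the lowest high strain was at 0 TPM, so all 20 low strains were bound to be at or above it. For both genes 18 of the 20 high strains were at or below the highest low strain. Ntrk2, the receptor of brain-derived neurotrophic factor, followed (2.37 ± 0.53, medians 3.51 and 0.407 TPM), then Acpp (2.05), Chrna4 (2.00), Dntt (1.87), Raet1d (1.81), Adcy10 (1.76) and Sult2a7 (1.76). Adcy10 was low in both groups, with medians of 0.613 TPM in the high and 0.445 TPM in the low strains. For this gene 18 low strains were at or above the lowest high strain. The largest falls were those of Dnah17 (-3.10 ± 0.70) and Hif3a (-2.22 ± 0.54), whose medians hardly differed (0.330 and 0.365 TPM for Dnah17, 0.0936 and 0.173 TPM for Hif3a), so that a few low strains carried them. Cyp2b10, the target gene of the xenobiotic receptor CAR, changed by -2.09 ± 0.46, the stress gene Gadd45b by -2.02 ± 0.34 and the cell cycle inhibitor Cdkn1a by -1.92 ± 0.53. Cdkn1a had medians of 6.05 and 36.4 TPM. Ndufa4l2 (-1.97), Ildr2 (-1.78), Ier3 (-1.75), Olfr1388 (-1.74) and Fam107a (-1.71) completed the 10. With the family covariate 6 of the 10 rises (Mup7, Mup11, Mup21, Chrna4, Dntt and Raet1d) and 4 of the 10 falls (Cyp2b10, Gadd45b, Cdkn1a and Ier3) were called. For Mup7, Mup11 and Mup21 the slope on Sqle over all ranked strains was not called. It was 0.85, 0.16 and 0.60 per doubling (adjusted p = 0.380, 0.868 and 0.250). Within the middle strains their slopes were negative and not called (-0.59, -1.87 and -0.73). In BXD strains alone they rose by 5.81, 5.13 and 3.73 without being called. With Arntl and Dbp as covariates they rose by 5.62, 3.62 and 2.08, also without being called.

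Sqle lies on chromosome 15 (GRCm38, 59315077 to 59331192, + strand). Of 33 tested genes within 5000000 bases of it, 2 were called (6.06%), Tbc1d31 (0.73 ± 0.15, adjusted p = 0.00222) and Wdyhv1 (0.31 ± 0.10, adjusted p = 0.0375), against 7.90% of 519 genes on chromosome 15 and 9.21% of all genes.

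Over all ranked strains, the 10 genes whose log2 CPM was most like that of Sqle, among 13227 genes, were sterol genes throughout, among them Msmo1 (Pearson r = 0.91), Mvd (0.89), Lss (0.87), Cyp51 (0.87), Idi1 (0.87), Nsdhl (0.85), Hmgcs1 (0.84), Srebf2 (0.84) and Fdps (0.84). Spearman's rho was 0.89 for Msmo1 and 0.89 for Srebf2. Without FVB/NJ and NOD/ShiLtJ, the 2 strains farthest from the middle, r was 0.90 for Msmo1 and 0.84 for Srebf2. Within the 73 strains of the middle, r was 0.75 for Msmo1 and 0.78 for Lss. The most opposite genes were Cry1 (-0.56), Hipk1 (-0.55), Ahctf1 (-0.53), Flvcr2 (-0.53) and Gadd45b (-0.50), and their r within the middle strains was -0.14, -0.23, -0.18, -0.33 and -0.19. The strains share ancestry and each point shares its library between both genes, so these values are descriptions.

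The 73 strains between the groups, placed there by the same Sqle values, were fitted with a slope on log2 Sqle TPM. Here 57 of 14125 genes were called (0.404%), 46 with a rising slope (0.326%) and 11 with a falling one (0.0779%). Of the 21 cholesterol genes, 13 were called, all rising, and the median slope was 0.47, while that of all genes was -0.01. Mvd rose by 1.13 ± 0.11 (log2) for each doubling of Sqle (adjusted p = 5.51e-11), Msmo1 by 0.82 ± 0.11, Hmgcs1 by 0.74 ± 0.12 and Lss by 0.61 ± 0.07. With the family covariate 23 genes were called (0.163%), all rising, and 13 of the 21 cholesterol genes were among them. Acat2, Pmvk, Tm7sf2, Ebp and Sc5d, higher in the high strains, were not called in these strains.

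Of 19 genes of sterol sensing and uptake tested in the middle strains, 5 were called, all rising, and the median slope was 0.08. Among them were Insig1 at 0.54 ± 0.09, Stard4 at 0.43 and Srebf2 at 0.30 ± 0.04 per doubling. Scap, Tmem97 and Aacs, higher in the high strains, were not called here. With the family covariate 4 of the 19 were called. Few genes of the other groups were called. Of the lipogenic genes, Fasn (0.74 ± 0.18) and Gpam (0.41), which starts triglyceride synthesis, were called, and of the fasting genes Pdk4 alone (-1.31 ± 0.31, adjusted p = 0.0227). With the family covariate none of these 3 was called, and their slopes were 0.74 ± 0.20, 0.34 ± 0.09 and -1.27 ± 0.33 (Pdk4, adjusted p = 0.109). None of 17 clock genes was called, and Arntl had a slope of -0.59 ± 0.32 and Dbp of 0.10 ± 0.25. No gene of the LXR, bile acid, iron, NRF2, stress, acute phase, cell cycle or growth hormone lists was called. Outside these lists, Rdh11, a retinol dehydrogenase (0.58), Mmab, which sits beside Mvk and serves vitamin B12 metabolism (0.38), and Acsl3, a long-chain acyl-CoA synthetase (0.54), rose, while the foetal liver genes Afp (-1.65) and Gpc3 (-2.25) fell. With the family covariate Rdh11 (0.65) and Mmab (0.44) were called, and Acsl3 (0.32, adjusted p = 0.287), Afp (-0.87, adjusted p = 0.486) and Gpc3 (-1.23, adjusted p = 0.594) were not. Rdh11 changed by 1.73 and Mmab by 1.17 between high and low strains, whereas Afp was not called there (0.32, adjusted p = 0.428). These genes were chosen after their values were seen.

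**Figure D4:**
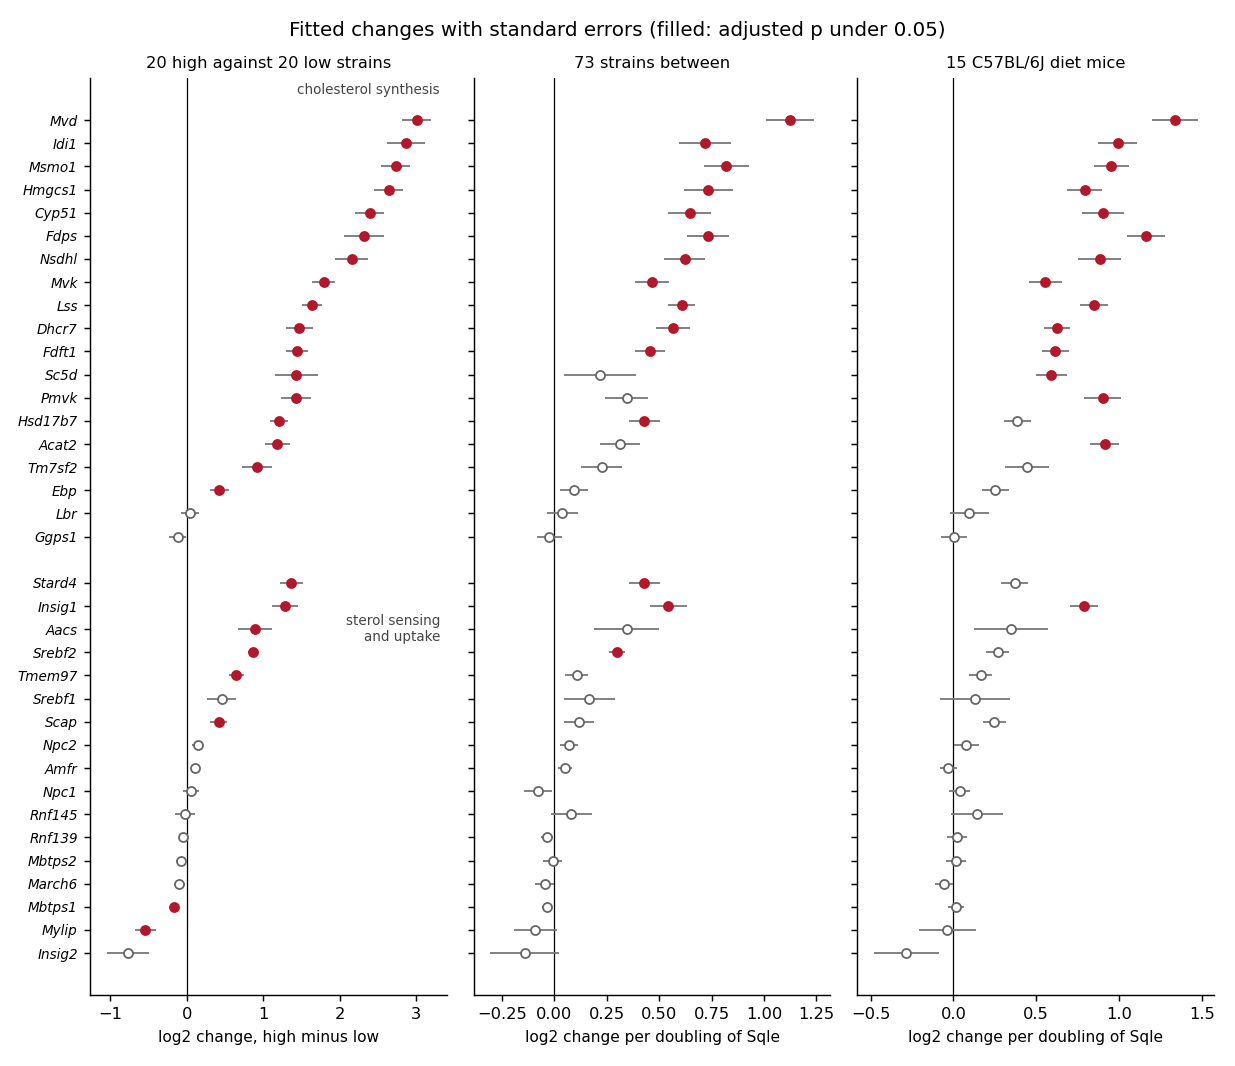
Log2 change high minus low (left), and log2 change per doubling of Sqle in the 73 strains between (centre) and in the 15 C57BL/6J diet mice with diet as a term (right), with standard errors, for 19 cholesterol genes and 17 genes of sterol sensing and uptake. Filled points have an adjusted p under 0.05. Mvd had the largest value of the list in all 3 fits. Lbr and Ggps1 have open points in each, at 0.10 and 0.00 in the diet mice, and lay at 0.59 and 0.19 there without replicate 1 of the 2% iron group.

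The diet mice held the strain constant. Sqle was at 21.2, 34.8 and 42.4 TPM on chow, 18.3, 34.1 and 24.4 TPM on 50 ppm, 21.4, 22.2 and 32.3 TPM on 500 ppm, 10.6, 35.5 and 50.1 TPM on 2% iron, and 29.7, 31.3 and 36.9 TPM on 2% iron with cellulose. Every diet group but the last spanned a wide range, and the groups overlapped. Mvd, given in the same order of mice, was at 6.09, 13.6 and 17.5 TPM on chow, 5.16, 14.3 and 11.2 TPM on 50 ppm, 8.71, 5.23 and 13.3 TPM on 500 ppm, 1.68, 7.35 and 11.2 TPM on 2% iron, and 5.48, 6.65 and 5.75 TPM on 2% iron with cellulose. On chow, 50 ppm and 2% iron the mouse with more Sqle had more Mvd in every pair. At a like level of Sqle the mice on the 2% diets had less Mvd than the others. The 2% iron mouse with 35.5 TPM of Sqle had 7.35 TPM, while the chow mouse with 34.8 TPM had 13.6 TPM.

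With diet as a term, the slope on log2 Sqle was called in 45 of 13887 genes (0.324%), all rising. Of the 21 cholesterol genes, 15 were called and all 21 slopes were above 0, with a median of 0.79 against 0.00 for all genes. Mvd rose by 1.34 ± 0.14 per doubling of Sqle (adjusted p = 0.000657), Fdps by 1.16 ± 0.11, Idi1 by 0.99 ± 0.12, Msmo1 by 0.95 ± 0.11 and Lss by 0.85 ± 0.09. Among the regulators Insig1 (0.79 ± 0.08) was called, Srebf2 was not (0.27 ± 0.07, adjusted p = 0.275). Of the lipogenic genes Fasn (1.10 ± 0.15), Acss2 (1.25), Acly (1.03), Elovl6 (0.98) and Me1 (0.85) were called. None of the fasting and clock genes was called, and Pdk4 (-0.28 ± 0.30) and Arntl (-0.07 ± 0.38) had slopes within their standard errors.

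The calls in these 15 mice depended on the model and on 1 mouse. Without the diet term 2 genes were called, Insig1 among them, and none of the cholesterol genes, though all 21 slopes were above 0, with a median of 0.63. Replicate 1 of the 2% iron group had the least Sqle (10.6 TPM). Without it 5 genes were called, among them Mvd (1.48) and Hmgcs1 (1.10) as the only cholesterol genes. The 21 slopes were still all above 0, and 18 of them had an unadjusted p under 0.05. Lbr, at 0.10 ± 0.12 in all 15 mice, was at 0.59 ± 0.15 without this mouse (adjusted p = 0.512).

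**Figure D5:**
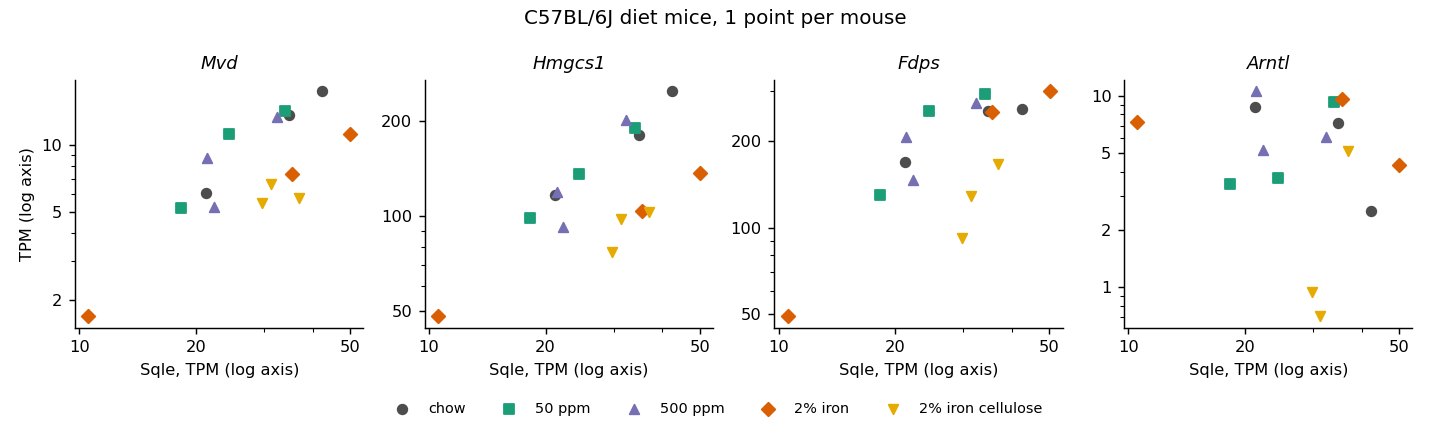
TPM of Mvd, Hmgcs1, Fdps and Arntl against TPM of Sqle (log axes) in the 15 C57BL/6J mice, 1 point per mouse, marked by diet. Mvd and Hmgcs1 lie lower at a like Sqle level on both 2% diets, Fdps does so with cellulose alone, and Arntl spans 0.702 to 10.6 TPM.

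The 3 fits had 12 cholesterol genes in common, called as higher in each, among them Hmgcs1, Mvk, Mvd, Idi1, Fdps, Fdft1, Lss, Cyp51, Msmo1, Nsdhl and Dhcr7. No library is in more than 1 of these fits. Without replicate 1 of the 2% iron group 5 genes were called in the diet mice, and of the 12 only Mvd and Hmgcs1. Without the diet term none of the 12 was called there. Both the middle strains and the diet mice called 21 genes, among them these 12 with Insig1, Fasn, Acsl3, Rdh11, Pstpip2, Fmn1 and Gm13502. Between related mice the enzymes went with Sqle as well. AXB19/PgnJ, AXB19b/PgnJ and AXB19a/PgnJ, with 69.1, 18.99 and 7.76 TPM of Sqle, had 24.1, 4.91 and 1.53 TPM of Mvd, 249, 52.03 and 26.9 TPM of Hmgcs1, and 631.7, 234 and 65.8 TPM of Fasn. Their Arntl levels were 0.946, 0.291 and 2.27 TPM. BXD48/RwwJ and BXD48a/RwwJ, with 45.2 and 14.9 TPM of Sqle, had 6.59 and 5.10 TPM of Mvd and 145 and 61.2 TPM of Hmgcs1. The 2 mice of 129X1/SvJ, alike in Sqle, had 12.1 and 11.6 TPM of Mvd, with 4.34 and 7.77 TPM of Arntl and 39.4 and 4.35 TPM of Dbp.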

How the data were processed

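Liver RNA-seq of 130 libraries was used: 115 of the strain panel and 15 of the diet study. Libraries were made with a kit for stranded mRNA, per the labels' protocols. Per the submitters' processing notes, kallisto 0.46 and mm10 were used. The authors deposited, for each study, a table of expected counts per gene and a table of TPM, with Ensembl gene identifiers. No column was left unassigned. Symbols came from GENCODE M21 (GRCm38), which matched 35691 of 35711 panel and 34924 of 35274 diet identifiers. Expected counts were rounded to whole numbers, although the planned test had assumed plain counts. TPM was used for ranking and levels.

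Genes were filtered with filterByExpr, scaled with TMM and tested with the quasi-likelihood test of edgeR 4.0.16 in R 4.3.3, with Benjamini-Hochberg adjustment over all genes tested. Sqle was dropped as a tested gene. There were 3 comparisons: high against low strains, a slope on log2 Sqle TPM in the 73 strains between, and the same slope with diet as a term in the 15 C57BL/6J mice. Likeness to Sqle used log2 CPM with a prior count of 2. The fit was checked on simulated data. Alternatives were RLE scaling, no filter, DESeq2 1.42.0, limma 3.58.1 on log2(TPM), strain family as a covariate, other group sizes and ranks, related lines left out, and each diet mouse left out. The covariate fits with Arntl and Dbp, with Pdk4, G6pc and Igfbp1, and with Saa1 and Saa2 were chosen after the data were seen. The members and gene lists were chosen with earlier results of these data known.

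Some members of the lists are counted but not reported here by name. Genes named are the other members of both sterol lists, up to 4 called genes with the smallest adjusted p of each other list, and, outside the lists, the 10 called genes that rose most and the 10 that fell most, provided their mean was 1 CPM or more and leaving aside predicted genes and pseudogenes. The 10 genes most like and the 5 most opposite to Sqle were named too. Any further gene was picked once its values had been seen. Whether mice shared a cage, litter or day of collection is not given in the sources used here, and p-values measure the spread between strains with 1 mouse each. Totals of 9.41 to 20.6 M counts (panel) and 10.4 to 20.4 M (diet) leave genes of few counts imprecise. Promoters came from RefSeq (GRCm38.p6).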

Additional observations from a re-analysis of the deposited data

How the results depend on the processing

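The 1210 genes called between high and low strains stayed within a factor of 1.5 with RLE scaling, without the filter, with DESeq2, with 15 strains a side, with ranks by CPM, with BXD65/RwwJ kept and with related lines left out. The count was 2229 and 2233 with limma on log2(TPM + 1) and log2(TPM + 0.1), 652 with strain family as a covariate, 1985 with 30 strains a side, 119 in BXD strains alone (fewer strains) and 3005 for a slope over all ranked strains. With covariates chosen after seeing the data it was 115 (Arntl and Dbp), 235 (Pdk4, G6pc and Igfbp1) and 744 (Saa1 and Saa2). Between 13 and 19 cholesterol genes were called in all of these settings. With Pdk4, G6pc and Igfbp1 as covariates Mup7 was at -0.12 and Sult2a7 at -0.13, and in BXD strains alone Olfr1388 was at 0.26 and Fam107a at 0.42, the opposite of their direction in the main comparison. In the middle strains 169 genes were called without the filter, 105 with DESeq2 and 23 with the family covariate, against 57. In the diet mice 93 were called with DESeq2 and 2 without the diet term, with 0 cholesterol genes, against 45 and 15. Leaving out 1 diet mouse gave 5 to 55 genes and 2 to 17 cholesterol genes. The count moved by over 1.5 times without 2% iron replicate 1 (5) or 3 (16), 500 ppm replicate 3 (28), and chow replicate 1 (29) or 3 (29). The cause was not tested. No paired analysis was possible because the labels give no replicate numbers that tie samples across groups, and each panel strain is 1 mouse.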
